A study of Mus musculus with 6 samples.

Results

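Cadherins and protocadherins are calcium-dependent adhesion proteins of the cell surface, and their RNA was followed here in cortical cells of mouse embryos whose dams had received phenobarbital, a barbiturate drug acting on GABA-A receptors. The members are the array probes whose transcript accession belongs to a gene named Cdh with a number or Pcdh. Cdh5, the cadherin of endothelial cells, was left out. In all, 86 of 55681 probes qualified, and they stand for 68 of the 20145 genes that could be named by accession. Of these 68 genes, 22 are numbered cadherins, 35 are clustered protocadherins (7 alpha, 22 beta and 6 gamma) and 11 are non-clustered protocadherins.

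The control group holds 3 arrays from C57BL/6N embryos of saline-injected dams and the phenobarbital group 3 arrays from embryos of the same strain whose dams were injected with 80 mg/kg on embryonic days 10 to 11. Per the labels' protocols, injections were paired, 6 h apart, and the stock held 8 mg/mL. The labels give the tissue as cerebral neocortex and the cells as NPC, neural progenitor cells, at E12.5, while the protocol says embryonic day 12. In both groups the cortex was dissociated mechanically and the cells were plated on poly-L-ornithine and fibronectin, with RNA taken 4 h later, so every value describes freshly dissociated cells. Whether the 3 samples of a group came from separate litters is not given, so the p-values below rest on the spread of these arrays alone, and that spread may be technical. All 11 radial glia markers checked, Pax6 and Sox2 among them, were well above background on all 6 arrays.

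Classical cadherins bind the same molecule on a neighbouring cell and are tied to actin inside the cell through beta-catenin and alpha-catenin. In the cortical wall, junctions of this kind hold the end feet of radial glia together at the ventricle, and their main cadherin is Cdh2. Clustered protocadherins are made from arrays of alternative first exons in 3 gene clusters, and each neuron switches on its own few of them, which gives cells an identity used for self-recognition. Most non-clustered protocadherins, the delta group, are single genes with patterned expression in the developing brain.

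Values are log2 of the background-subtracted signal relative to the 75th percentile of the same array, so that 0 marks that percentile. They compare arrays for 1 probe, and levels of different probes are not compared. A gene was tested on its brightest probe if all arrays of 1 group or of both showed that probe well above background, and it is said to have changed where limma gave a Benjamini-Hochberg adjusted p below 0.05 over all 25304 names tested. Of the members, 63 probes of 51 genes passed this filter, and 17 genes did not. A gene can pass through the group in which it is brighter, so the 51 are not a neutral sample of the 68.

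Across all names 16.7% changed, 6.24% upward (1580 genes) and 10.5% downward (2654). This split depends on the scaling: the counts were 1591 up and 1325 down after quantile normalization, 1442 and 1028 with the median as reference, 1612 and 1104 with the percentile over probes above background on all arrays, and 1525 and 4735 after the normexp background correction. Over all genes the log2 fold change had a median of -0.16. Control replicate 1 and the 3 phenobarbital arrays shared a slide, while control replicates 2 and 3 were each on a slide of their own. Control replicate 2 stood apart, with r of 0.988 and 0.983 to the other controls against 0.996 between these, across genes, which are not independent replicates. Markers of other cell types differed too: 5 of 7 choroid plexus genes rose (Kcne2 among them, above background on no control array), 5 of 8 erythroid genes fell, 4 of 9 microglial genes fell and 1 rose, 2 of 8 genes of surface epithelium rose, 1 of 8 of eye and diencephalon fell and 0 of 6 of cortical hem changed (limma), 3 of the last at an unadjusted p below 0.05. Their part in the results below was not tested.

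Of the 51 cadherin and protocadherin genes tested, 3 fell, 0 rose and 48 did not pass. The 3 were Cdh2, the beta protocadherin Pcdhb3 and the gamma protocadherin Pcdhgb1, each lower by 1.53-fold to 1.64-fold. The members' 5.88% stands beside 16.7% of all genes (limma, adjusted p below 0.05), and 15 of 51 members had an unadjusted p below 0.05, as had 35.7% of all genes. Their median log2 fold change was -0.21, and 36 of 51 were negative (70.6%), as were 68.0% of all genes. The groups did not overlap for 15 members (13 lower with phenobarbital, 2 higher), while over all genes this held for 44.1% (32.4% lower, 11.7% higher). The members' median standard error was 0.19, against 0.15 over all genes. Leaving out single arrays changed these calls. With control replicate 1, control replicate 3 or any 1 phenobarbital array left out, 0 members passed. In those settings only 3.45% to 6.99% of all genes passed. Without control replicate 2, 4 members passed (Cdh2, Pcdhb3, Pcdhb18 and Pcdh10, all lower). This was 7.84% of the members, against 17.3% of all genes.

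**Figure D1:**
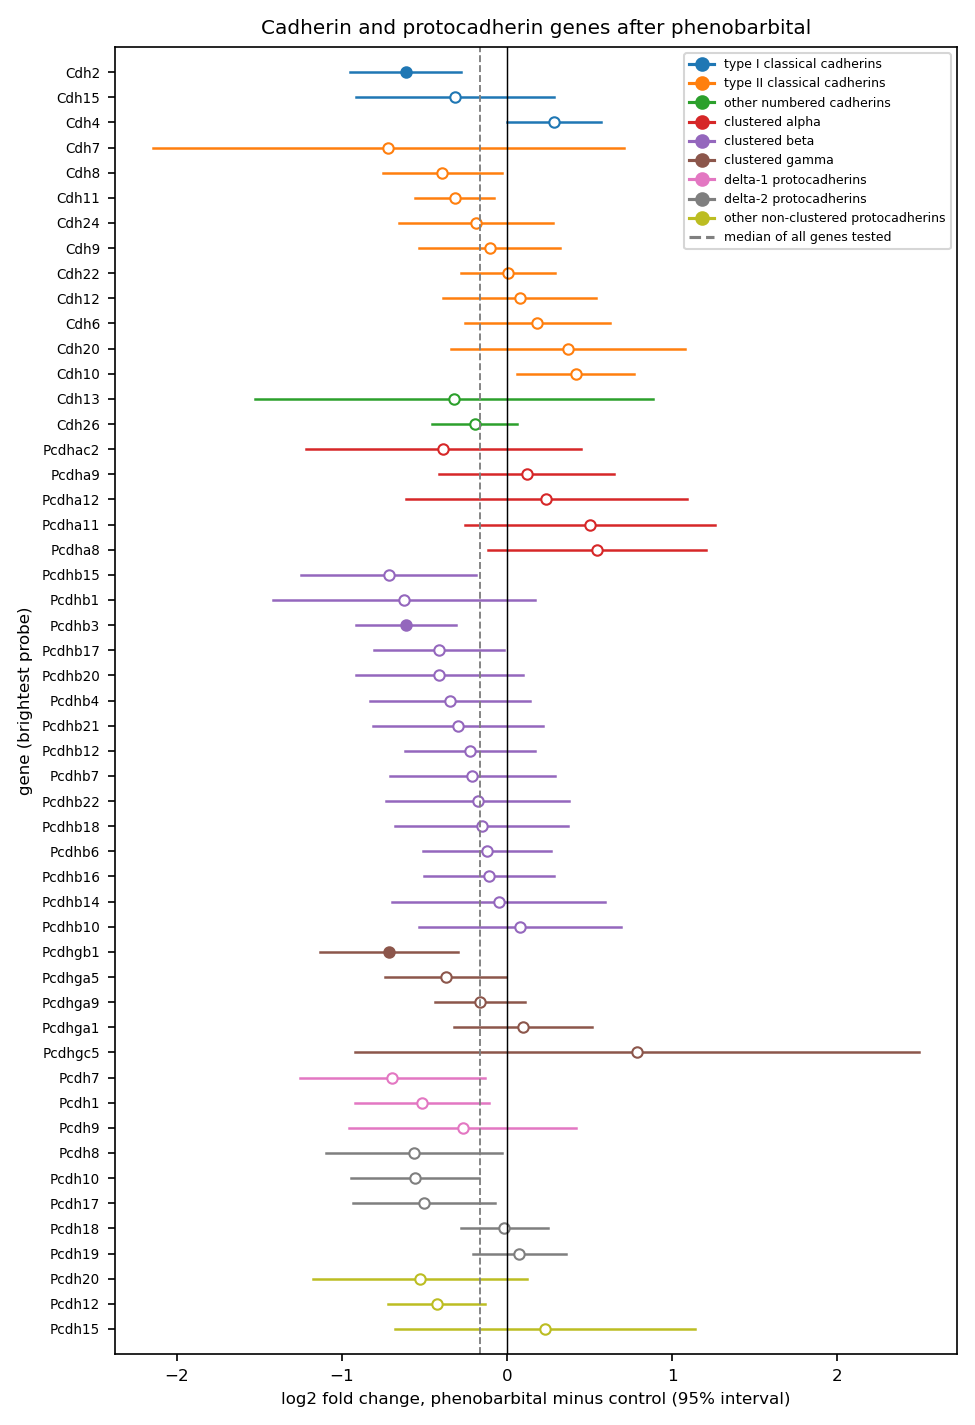
Log2 fold change (horizontal axis, phenobarbital minus control) with its 95% interval for each of the 51 genes tested (vertical axis), coloured by class; filled points passed the adjusted threshold and the dashed line is the median of all genes tested (-0.16). The filled points are Cdh2, Pcdhb3 and Pcdhgb1, all to the left of 0, and most beta and delta genes lie to the left of 0 as well.

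Among the type I classical cadherins, which carry the strongest adhesion, Cdh2 fell and 2 others tested did not pass. Cdh2, N-cadherin, read 5.09, 5.37 and 4.99 in the controls and 4.55, 4.66 and 4.40 with phenobarbital. All 3 phenobarbital arrays lay below all 3 controls. The log2 fold change was -0.61 ± 0.14 (SE, n = 3 per group; limma, adjusted p = 0.0350), with a 95% interval of -0.95 to -0.28. A second Cdh2 probe read 4.91, 4.83 and 4.94 in the controls and 4.54, 4.70 and 4.36 with phenobarbital, again without overlap but with a smaller difference of -0.36 ± 0.12 that did not pass (adjusted p = 0.0966 with every probe tested). The Cdh2 call held in 9 of 20 alternative settings, over which the log2 fold change ran from -0.69 to -0.39 and the adjusted p from 0.0149 to 0.174. Within the shared slide, where control replicate 1 is the only control, it was -0.56 (adjusted p = 0.174).

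Markers of neurons and of radial glia are given beside this. Of 8 neuronal genes, 5 fell, Elavl4, Stmn2 and Tbr1 among them, and the log2 of their summed signal was 7.90 to 8.07 in the controls and 7.23 to 7.52 with phenobarbital. Their mean log2 value, which weighs all 8 genes alike, was 3.91 to 4.29 against 3.53 to 3.77. Of 11 radial glia genes, Vim fell, Emx2 rose and 9 did not pass. Their log2 summed signal was 9.03 to 9.18 in the controls against 8.72 to 8.96, but their mean log2 value overlapped, at 3.56 to 3.76 against 3.65 to 3.83. The part of cell makeup in the Cdh2 difference was not tested, and in bulk samples fewer cells of a type and less RNA per cell cannot be told apart.

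Cdh4, R-cadherin, which can pair with Cdh2, went the other way on its brightest probe. It read 2.45, 2.23 and 2.33 in the controls and 2.49, 2.75 and 2.61 with phenobarbital. The groups did not overlap, but the lowest phenobarbital array lay just above the highest control, and the difference of 0.28 ± 0.12 did not pass (adjusted p = 0.142). Its 2 other probes had log2 fold changes of -0.04 and 0.60, which did not pass either. The probe at 0.60 was above background on only 2 controls and passed the filter through phenobarbital alone. Cdh15, the cadherin of muscle, had -0.32 ± 0.25, which rests on control replicate 2: it read -2.20 there and -3.06 and -3.11 in the other controls, and without that array the difference was -0.02. Cdh1, E-cadherin of epithelia, was above background on no array, and Cdh3, P-cadherin, on 1 control and 2 phenobarbital arrays, so neither was tested.

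None of 10 type II cadherins tested passed (limma), with 3 at an unadjusted p below 0.05 (35.7% of all genes). This subfamily marks areas, layers and nuclei of the brain in combinations. The values were evenly split, with 5 negative and 5 positive log2 fold changes and a median of -0.05, while 68.0% of all genes were negative. The positive ones include Cdh20, which passed the filter through phenobarbital alone. Among genes above background on all 6 arrays, 5 were negative and 4 positive, with a median of -0.11. Cdh11, strong in mesenchyme and also expressed in brain, read 0.35, 0.30 and 0.41 in the controls and 0.07, 0.08 and -0.05 with phenobarbital. These groups did not overlap, yet the difference was small (-0.32 ± 0.10, adjusted p = 0.0714), and a dimmer Cdh11 probe had 0.05 ± 0.15. Of 13 genes of meninges and mural cells, 6 fell (Lum, Foxc1 and Col3a1 among them), 6 did not pass and Des, which was above background on no control array, rose. Their log2 summed signal was 5.87 to 5.99 in the controls against 5.03 to 5.32 with phenobarbital, while their mean log2 value overlapped, at -0.12 to 0.40 against -0.41 to -0.06. Their part in the Cdh11 difference was not tested.

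Cdh8 and Cdh10, both expressed in patterned fashion in the brain, differed in opposite directions without passing. Cdh8 read -1.96, -1.65 and -2.15 in the controls and -2.26, -2.41 and -2.27 with phenobarbital, a difference of -0.39 ± 0.15 (adjusted p = 0.118). Cdh10 read -3.33, -3.67 and -3.51 in the controls and -3.20, -3.20 and -2.86 with phenobarbital, a difference of 0.42 ± 0.15 (adjusted p = 0.0969). Neither pair of groups overlapped. Cdh22, a neural cadherin, was level at 0.01 ± 0.12, with a 95% interval of -0.28 to 0.29. Cdh12, also neural, had 0.08 ± 0.19, with a wider interval of -0.39 to 0.54. Its value rests in part on control replicate 2, which read -0.84 against -1.46 and -1.39 in the other controls. Without that array the Cdh12 difference was 0.27 ± 0.13, which did not pass. Cdh7 was set apart by 1 control array: replicate 3 read -0.01, while replicates 1 and 2 read -1.84 and -2.44 and the phenobarbital arrays -2.44 to -1.96. The other type II genes tested, Cdh6, Cdh9, Cdh20 and Cdh24, ran from -0.19 to 0.37, and Cdh18 and Cdh19 were above background on no array.

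Of the remaining numbered cadherins, Cdh13 and Cdh26 were tested and neither passed. Cdh13, T-cadherin, is held in the membrane by a lipid anchor and has no tail to bind catenins. It varied widely among the controls, at 0.31, -1.09 and 0.83, and less with phenobarbital, at 0.14, -0.30 and -0.75, and the difference of -0.32 ± 0.50 was smaller than its error. Cdh26 read 2.18 to 2.41 in the controls and 2.07 to 2.15 with phenobarbital, a narrow gap of -0.20 ± 0.11 without overlap (adjusted p = 0.234). Cdh16, Cdh17 and Cdh23 were above background on no array.

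**Figure D2:**
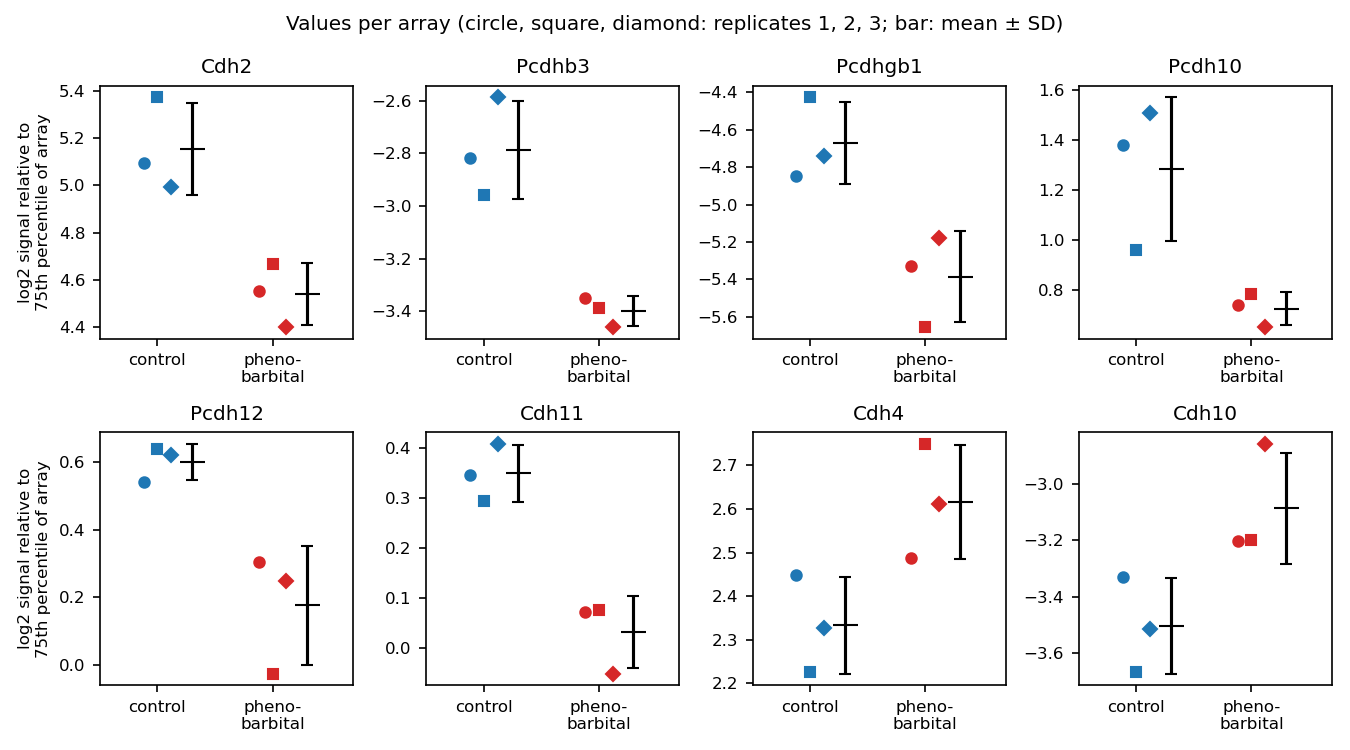
Log2 signal relative to the array's 75th percentile (vertical axes, which differ in range) on each control (blue) and phenobarbital (red) array for 8 genes, with the mean ± SD of 3 arrays beside the points. The groups do not overlap in any of the 8; the first 6 genes are lower with phenobarbital, and Cdh4 and Cdh10 higher.

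Among clustered protocadherins, 25 of 35 genes were tested; 2 fell, 0 rose and 23 did not pass (limma), with 5 of 25 at an unadjusted p below 0.05 (35.7% of all genes). The variable exons of the alpha and gamma clusters are joined to constant exons shared by the whole cluster, so a probe in a constant exon reads every transcript of that cluster. Probe sequences were not used here, so which alpha and gamma probes read a constant exon cannot be told apart from those that read a variable one. Beta genes have no shared constant exon but resemble each other closely, so some of their signals may be shared too.

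Pcdhb3 read -2.82, -2.96 and -2.59 in the controls and -3.35, -3.39 and -3.46 with phenobarbital. The phenobarbital arrays lay close together, below every control, and the difference was -0.61 ± 0.13 (95% interval -0.91 to -0.31; limma, adjusted p = 0.0280). The call held in 10 of 20 alternative settings, with log2 fold changes of -0.70 to -0.51 and adjusted p of 0.0131 to 0.132. Of its neighbours in the cluster, Pcdhb2 was above background on no array, and Pcdhb4 had -0.35 ± 0.20 (adjusted p = 0.261).

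Of 15 beta genes tested, 14 had a negative log2 fold change, with a median of -0.22 against -0.16 over all genes, of which 68.0% were negative. The 15 include Pcdhb15 and Pcdhb1, which passed the filter through the controls alone, and among genes above background on all 6 arrays 12 of 13 were negative. Under the other scalings and normexp, 13 to 15 of them were negative. The brightest beta probes, Pcdhb21, Pcdhb17 and Pcdhb20, had -0.30 ± 0.21, -0.41 ± 0.16 and -0.41 ± 0.21, none of which passed. Pcdhb15 had -0.72 ± 0.22 (adjusted p = 0.0703) with no overlap, though it was well above background on all 3 controls and on only 1 phenobarbital array. The single positive value was 0.08 ± 0.25, for Pcdhb10. Of the 7 beta genes not tested, Pcdhb8 was above background on 1 phenobarbital array and the other six on none.

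Pcdhgb1, a member of the B group of the gamma cluster, read -4.85, -4.43 and -4.74 in the controls and -5.33, -5.65 and -5.18 with phenobarbital. This is a dim probe, well above background on all 6 arrays, and the groups did not overlap. The difference was -0.72 ± 0.17 (95% interval -1.13 to -0.30; limma, adjusted p = 0.0399). It held in 8 of 20 alternative settings, with log2 fold changes of -0.82 to -0.50 and adjusted p of 0.0213 to 0.245, and was lost when any 1 array was left out (-0.59 without control replicate 2, adjusted p = 0.0570). The bright Pcdhga9 probe, in contrast, was steady, at 5.05, 5.32 and 5.16 in the controls and 5.02, 5.07 and 4.95 with phenobarbital, a difference of -0.16 ± 0.11 with a 95% interval of -0.43 to 0.11. A second Pcdhga9 probe had 0.07 ± 0.16. Pcdhga1 and Pcdhga5 had 0.10 ± 0.17 and -0.37 ± 0.15. The median of the 5 gamma genes was -0.16, and it turned to 0.11 after quantile normalization. The 5 include Pcdhgc5 and Pcdhga5, each above background on only 2 controls, which passed the filter through phenobarbital alone. Among the 3 gamma genes above background on all 6 arrays the median was also -0.16. The C-type gene Pcdhgc5 was set apart by phenobarbital replicate 2, which read -2.91 while the other two phenobarbital arrays read -5.48 and -5.23 and the controls -6.06 to -4.94.

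None of 5 alpha genes tested passed on its brightest probe (limma), and 0 had an unadjusted p below 0.05. Their median log2 fold change was 0.24, which turned to -0.03 with normexp. The 5 include Pcdha11, higher with phenobarbital, which passed the filter through that group alone. Among the 4 genes above background on all 6 arrays the median was 0.18. Pcdha8 had 0.55 ± 0.28, Pcdha9 had 0.12 ± 0.22 and Pcdhac2, a C-type gene at the end of the cluster, had -0.38 ± 0.35. The 2 probes of Pcdhac2 disagreed. The brighter one read 0.78, -0.21 and 0.97 in the controls and 0.40, 0.27 and -0.29 with phenobarbital, so that the groups overlapped. The dimmer one read -4.99, -5.42 and -5.25 in the controls and -3.35, -3.32 and -3.81 with phenobarbital, every phenobarbital array above every control. With every probe tested, 15.7% of probes changed (6.97% upward, 8.74% downward), and the dimmer Pcdhac2 probe was among them, with a rise of 1.72 ± 0.19 (limma, adjusted p = 0.00471). Both probes carry the same transcript accession, so the accession does not separate what they read. Pcdha4, Pcdhac1 and Pcdhga10 were not tested; Pcdhac1 and Pcdhga10 were each above background on 1 array of each group and Pcdha4 on none.

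The clusters differed in how control replicate 2 stood to the other controls. In control replicate 2 all 5 alpha genes and 13 of 15 beta genes had the lowest value of the 3 controls, while all 5 gamma genes had the highest. Of all genes tested, 41.9% were lowest and 41.7% highest in that array. Relative to the mean of control replicates 1 and 3, control replicate 2 differed by a median of -0.93 for alpha genes, -0.49 for beta genes and 0.36 for gamma genes, against 0.0017 over all genes. Pcdha12, for instance, read -4.68 in control replicate 2, -3.47 and -3.44 in the other controls and -3.92 to -3.40 with phenobarbital. The log2 summed signal of the neuronal markers was 7.90 in control replicate 2 and 7.93 and 8.07 in the others, although 1 of them, Neurod6, read 0.73 against 3.16 and 3.36. That of the erythroid markers was 10.4 against 10.1 and 9.87, and that of the cortical hem markers 4.64 against 3.22 and 3.46; their part in the pattern was not tested. The pattern was noticed in these values and has no test.

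**Figure D3:**
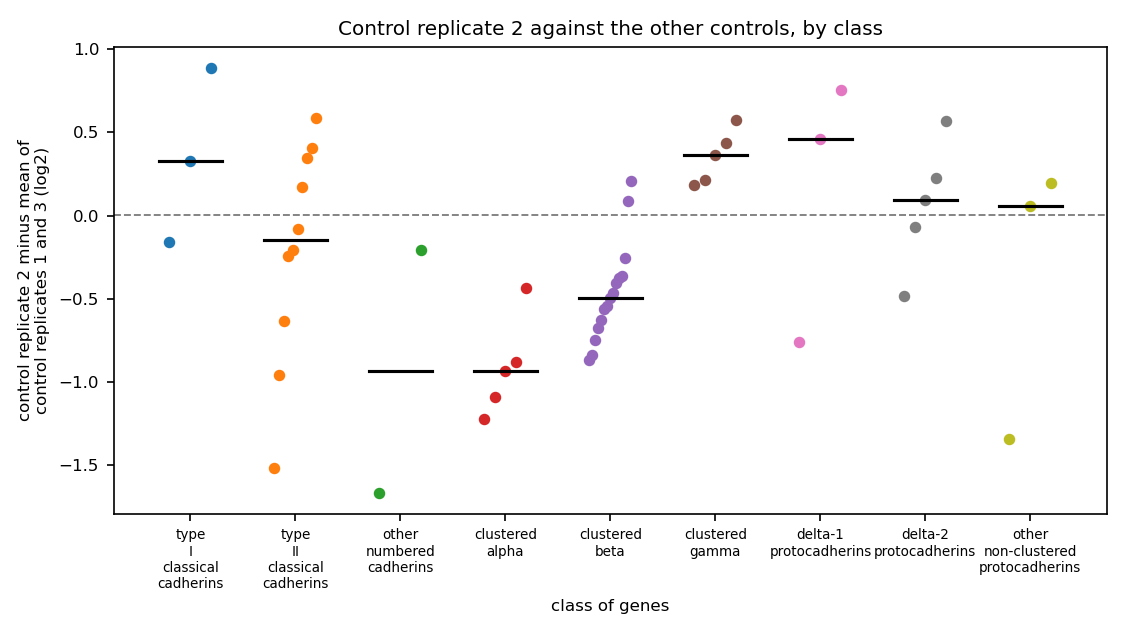
Difference on the log2 scale between control replicate 2 and the mean of control replicates 1 and 3 (vertical axis) for each tested gene, by class (horizontal axis); black bars are class medians and the dashed line is the median of all genes tested. The alpha points are all below 0 and the gamma points all above it, with beta points between -0.87 and 0.21.

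The beta values depended on which control was left out. Without control replicate 2 all 15 were negative, with a median of -0.42 against -0.17 over all genes, and without control replicate 3 11 were negative, with a median of -0.11 against -0.17. The first of these follows from leaving out the array in which most beta genes were lowest, so the additional call it gave, Pcdhb18, is no separate support. For Pcdhb18 the controls read -3.18, -3.88 and -3.08 and the phenobarbital arrays -3.47, -3.56 and -3.56, so that only control replicate 2 lay below the phenobarbital group. The alpha median went from 0.24 to -0.03 and the gamma median from -0.16 to -0.09. Within the shared slide all 15 beta genes were negative as well, with a median of -0.34 and 0 passing.

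None of the 11 non-clustered protocadherin genes, all of which were tested, passed on its brightest probe (limma), with 6 of 11 at an unadjusted p below 0.05 (35.7% of all genes). A negative log2 fold change was found in 9 of 11, the median was -0.50, a difference of -0.34 from that of all genes, and for 5 of 11 the phenobarbital arrays lay below all controls, which held for 32.4% of all genes. Without phenobarbital replicate 2 the median was -0.32. Normexp gave 2 falls among the 11, Pcdh10 and Pcdh12, in a setting where 24.7% of all genes passed.

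Of these genes Pcdh10 differed on both of its probes. It is a delta-2 protocadherin that guides axons of the forebrain and binds the actin-regulating WAVE complex. The brighter probe read 1.38, 0.96 and 1.51 in the controls and 0.74, 0.79 and 0.65 with phenobarbital, and the difference of -0.56 ± 0.16 did not pass (limma, adjusted p = 0.0607). The other probe, which carries the accession of a different Pcdh10 transcript, read 0.46, 0.10 and 0.46 in the controls and -0.41, -0.62 and -0.78 with phenobarbital. On both probes all phenobarbital arrays lay below all controls. With every probe tested the second probe fell by 0.94 ± 0.16 (adjusted p = 0.0160). Over 20 alternatives the log2 fold change of Pcdh10 ran from -0.94 to -0.44 and the adjusted p from 0.0143 to 0.171 (limma), with 5 passing. The -0.94, among these 5, is the second probe itself and not another processing of the brighter one. Without control replicate 2 the brighter probe had -0.72 (adjusted p = 0.0143). This left out the control in which that probe was lowest, so it is no separate support.

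The promoters of Pcdh10 and Cdh10 are shown because these genes differed in opposite directions with no overlap between groups, Pcdh10 downward on both probes and Cdh10 upward, although neither passed on its brightest probe. Both sequences are from RefSeq, build GRCm38.p6, and are windows of 300 bases that end just after the gene's start, on the plus strand, with each CG dinucleotide in capitals. The Pcdh10 window is chr3:45378148-45378447 and the Cdh10 window chr15:18820079-18820378.
Pcdh10: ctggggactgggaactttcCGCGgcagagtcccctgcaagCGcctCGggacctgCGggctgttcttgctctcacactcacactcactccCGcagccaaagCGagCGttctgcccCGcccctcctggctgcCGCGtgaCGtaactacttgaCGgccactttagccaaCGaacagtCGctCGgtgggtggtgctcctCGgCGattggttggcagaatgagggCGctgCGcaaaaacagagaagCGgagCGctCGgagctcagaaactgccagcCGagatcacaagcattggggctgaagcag
Cdh10: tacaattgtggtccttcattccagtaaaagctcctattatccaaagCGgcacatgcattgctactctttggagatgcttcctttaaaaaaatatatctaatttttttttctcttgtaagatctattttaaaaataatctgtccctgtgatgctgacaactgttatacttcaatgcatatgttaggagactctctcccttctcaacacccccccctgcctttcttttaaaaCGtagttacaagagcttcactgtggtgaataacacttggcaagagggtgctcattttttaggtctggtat
The Pcdh10 promoter holds 24 CG dinucleotides, a count reached by 20.0% of the 32851 promoters counted, and the Cdh10 promoter holds 2, reached by 85.9%. Promoters on the chromosome of Cdh2 and the clustered protocadherins were left out of all these counts. None of the 3 members that passed is therefore among them, and the shares do not describe the whole family. Some other members, Cdh4 and Cdh11 among them, had no promoter available and are not counted either. The counts cover 22 member genes, 25 promoters in all, with a median of 14 CG dinucleotides against 7 over all promoters counted. The letters CACCTG, which the repressors of the Snai and Zeb families bind, and TATAAA, the core of the TATA box, were searched on both strands, and neither motif is part of the other. CACCTG occurs in 5 of the 25 member promoters (20.0%) and in 20.2% of all. By gene this is 3 of 22 (Cdh7, Pcdh7 and Pcdh15), since 3 of the 5 are neighbouring promoters of Cdh7. TATAAA occurs in 2 of the 25 (8.0%) and in 13.6% of all. The pair shown holds neither.

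Other delta-2 genes were split. Pcdh17, expressed in patterned fashion in forebrain circuits, read 2.44, 3.04 and 2.51 in the controls and 2.09, 2.12 and 2.27 with phenobarbital, lower without overlap (-0.50 ± 0.18, adjusted p = 0.0997). Pcdh8, whose RNA responds to neuronal activity, read -1.75, -1.15 and -1.0 against -1.90, -2.04 and -1.65, where 1 control lay within the phenobarbital range (-0.56 ± 0.22, adjusted p = 0.126). Pcdh19, the gene of an X-linked epilepsy, was level at 4.09, 3.95 and 3.95 against 4.22, 4.08 and 3.92, with a 95% interval of -0.21 to 0.36 for the difference. Pcdh18 was level as well (-0.02 ± 0.11, 95% interval -0.28 to 0.25). For Pcdh19 and Pcdh18, differences beyond 0.36 on the log2 scale lie outside the intervals.

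On their brightest probes the 3 delta-1 genes were all negative, with a median of -0.51. With the mean over a gene's probes all 3 were still negative, but the median was -0.07. Pcdh1 read 2.37, 2.79 and 2.30 in the controls and 1.81, 2.14 and 1.97 with phenobarbital (-0.51 ± 0.17, adjusted p = 0.0819). Pcdh7 read -1.72, -1.01 and -1.82 against -2.30, -2.34 and -2.0 (-0.69 ± 0.23, adjusted p = 0.0867). In both genes the groups did not overlap. The 2 dimmer Pcdh7 probes had -0.19 ± 0.29 and 0.85 ± 0.32, the latter with every phenobarbital array above every control. That last probe was above background on only 2 controls and passed the filter through phenobarbital alone. The difference in direction between Pcdh7 probes thus rests on a probe that was counted because it was bright with phenobarbital. Pcdh9 had -0.27 ± 0.29 on its brightest probe and 0.13 ± 0.15 on a dimmer tested one, both with overlap.

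Pcdh12, a protocadherin of endothelial cells, read 0.54, 0.64 and 0.62 in the controls and 0.30, -0.03 and 0.25 with phenobarbital. The groups were well separated, and the difference of -0.43 ± 0.12 missed the threshold (limma, adjusted p = 0.0597). Of 12 endothelial markers, 4 fell (Egfl7, Sox17, Flt1 and Esam), and the log2 of their summed signal was 6.42 to 6.51 in the controls and 5.70 to 5.95 with phenobarbital. Their mean log2 value was 0.66, 0.73 and 0.74 against 0.65, 0.16 and 0.67, where phenobarbital replicate 2 lay far below the controls and the other two close to them; their part in the Pcdh12 difference was not tested. Pcdh15, of the tip links of hair cells, had 0.23 ± 0.38 on its brightest probe and -0.50 ± 0.24 and -0.39 ± 0.12 on its dimmer ones; without control replicate 2, which read -4.53 against -3.26 and -3.13, the brightest probe had -0.22. Pcdh20 had -0.53 ± 0.27.

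Probes of 1 gene thus did not always move together. Of the 9 genes tested that had more than 1 probe above background, Cdh2 and Pcdh10 had the same sign on all probes. Signs differed between probes of Cdh4, Cdh11, Pcdhac2, Pcdhga9, Pcdh7, Pcdh9 and Pcdh15. Among the probes of these genes only the dimmer Pcdhac2 probe passed, so the calls do not settle the direction of the others. For Pcdh15 the brightest probe had the sign of the others without control replicate 2. For Pcdh7 the only positive probe was one that passed the filter through phenobarbital alone.

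**Figure D4:**
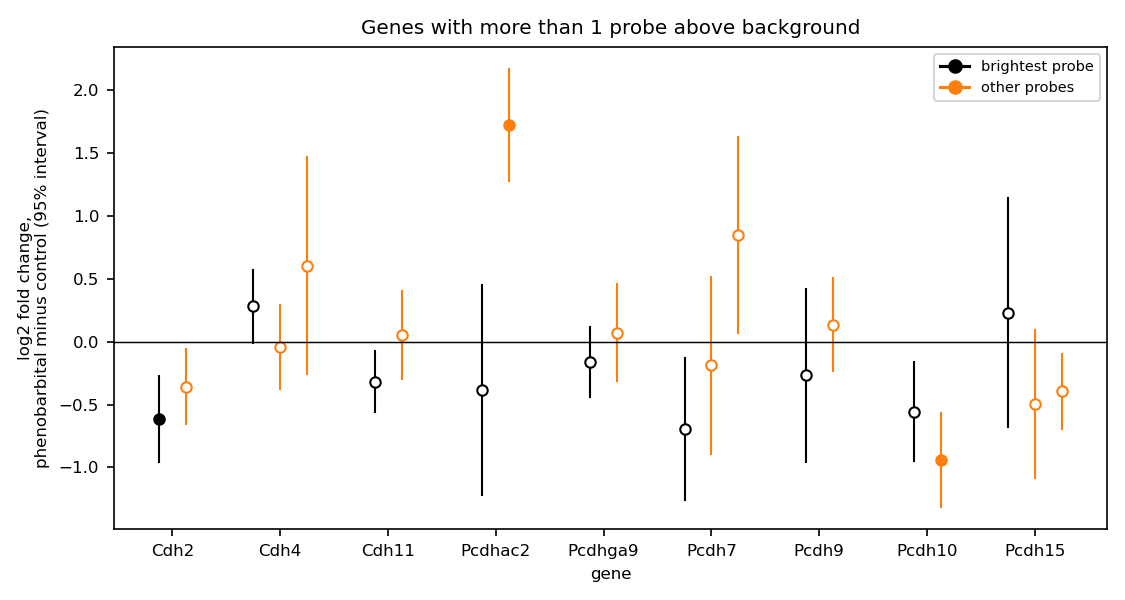
Log2 fold change with its 95% interval (vertical axis) for every probe above background of the 9 genes with more than 1 such probe (horizontal axis); black marks the brightest probe, orange the others, and filled points passed with every probe tested. Cdh2 and Pcdh10 are below 0 on each probe, and the dimmer Pcdhac2 probe stands alone at 1.72.

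The proteins that anchor cadherins were set beside them. Of 13 catenins and junction partners tested, 2 fell, 0 rose and 11 did not pass, with a median of -0.20. The share that changed, 15.4%, was near the 16.7% of all genes, whose median was -0.16. Ctnnb1, beta-catenin, which binds the cadherin tail and also carries Wnt signals, fell by 0.44 ± 0.10 (limma, adjusted p = 0.0360), and Adam10, the protease that sheds Cdh2 from the surface, by 0.50 ± 0.13 (0.0453). The alpha-catenins Ctnna1 and Ctnna2 had -0.20 ± 0.12 and -0.40 ± 0.19, and Ctnnd1, p120-catenin, -0.14 ± 0.09. No gene of this list passed after quantile normalization or without control replicate 2, among other settings.

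Of 16 other genes of the cadherin superfamily tested, 2 rose and 14 did not pass: Clstn1, a calsyntenin of synapses and axonal transport, rose by 0.58 ± 0.10 (limma, adjusted p = 0.0187), and Celsr2, a planar polarity cadherin, by 0.49 ± 0.11 (0.0334). Of 16 regulators and effectors of protocadherins, 3 rose and 13 did not pass. A negative log2 fold change was found in 13 of these 16, with a median of -0.21. The 3 that rose were the only positive ones. Rest, a repressor of neuronal genes, rose by 1.08 ± 0.19 (0.0191), Nipbl, which loads cohesin, by 0.70 ± 0.12 (0.0186), and Nckap1, a subunit of the WAVE complex, by 0.61 ± 0.14 (0.0340). Ctcf, which with cohesin joins protocadherin promoters to their enhancers, had -0.21 ± 0.10 (0.171). The cohesin subunits Smc1a, Smc3 and Rad21 had -0.35 ± 0.10, -0.34 ± 0.10 and -0.14 ± 0.13. Wasf1 and Cyfip2, also of the WAVE complex, had -0.36 ± 0.12 and -0.32 ± 0.16. None of these passed. Of 6 repressors of cadherin genes, Snai2 fell by 0.88 ± 0.21 (0.0374) and 5 did not pass. The log2 fold change of all 6 was negative, with a median of -0.51, while 68.0% of all genes were negative, with a median of -0.16. In these lists the shares that changed were near the 16.7% of all genes. Across all genes 6.24% rose and 10.5% fell (limma).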

How the data were processed

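RNA of 3 control and 3 phenobarbital samples was labelled with Cy3 (0.2 µg per array, per the labels) and hybridised to 1-colour Agilent arrays. Per the file headers, the authors read the spots with Feature Extraction software, version 10.7.3.1, which the submitters' processing notes give as 10.7; the array annotation uses build mm9. The deposited spot intensity is background-subtracted and detrended within each array, and not scaled between arrays. A second deposited table, the authors' values, is on the log2 scale: differences between arrays matched those of the log2 processed signals to within 1.90e-06 for 99% of probes after 1 factor per array. Scale and direction are thus known, and the constant each probe was centred on is unknown. Its column medians were 0.08, 0.10 and 0.09 for control replicates 1 to 3 and -0.02, -0.09 and -0.08 for phenobarbital replicates 1 to 3.

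Of 62976 spots per array, 59305 were not controls, and 62.8% to 68.7% of these were well above background. Spots called outliers (98 to 198 per array) were left out, none was saturated, and log2 signals minus the array's 75th percentile (1116 to 1286 in controls, 1802 to 1853 with phenobarbital) were averaged per probe. At most 1 spot signal was equal between any pair of arrays. Of 55681 probes, 26582 were named through RefSeq accessions (GRCm38.p6, names only), and the rest kept the file's name. A probe needed to be well above background on every array of a group, with at least 2 values per group (34673 probes, 25304 names).

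Groups were compared with lmFit and eBayes (limma 3.58.1, R 4.3.3), two-sided, with no covariate, and the fit was tested on simulated data. With 3 arrays per group, their number limits the precision. The members, lists, tests and alternatives were chosen with earlier results of these data known. The alternatives were another background correction, scaling, filter, probe choice, treatment of outliers and variance prior, the value table, the slide and the replicate number as blocks, and each replicate left out. Normexp used median spot signals. Named are members that passed on any probe, the 3 brightest tested members of each class, and up to 6 members of a list that passed; others are named where they fix a count or a range, or for groups that do not overlap, chosen after their values were seen.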

Additional observations from a re-analysis of the deposited data

How the results depend on the processing

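The direction of Cdh2, Pcdhb3, Pcdhgb1 and Pcdh10 was the same in all 20 alternatives, and no setting had more than 8 of the members passing. As reported, 1 numbered cadherin, 2 clustered protocadherins, 0 non-clustered protocadherins and 2 catenins and junction partners changed. These 4 counts, in that order, were 1, 5, 2 and 3 with normexp; 0, 1, 0 and 0 after quantile normalization, with scaling to the median and with the percentile over probes above background on all arrays; and 0, 0, 0 and 0 with no filter on dim probes. They were 1, 1, 2 and 2 with a trended, robust variance prior and 1, 1, 0 and 0 with the slide as a random block, and 1 non-clustered gene, Pcdh10, passed with every probe tested and with the mean over a gene's probes. With the slide as a fixed block all 4 counts were 0. Leaving out 1 replicate gave 0 to 1 numbered cadherins, 0 to 2 clustered and 0 to 1 non-clustered protocadherins and 0 catenins and junction partners; only without control replicate 2 did any member pass. Over all genes the count was 4234; it was 2470 with scaling to the median, 2716 with the percentile over probes above background, 1486 with no filter, 771 with the slide as a fixed block, and 881 to 4406 without 1 replicate. The log2 fold change of Pcdhac2 turned from -0.38 to 1.72 with every probe tested, because the dimmer probe then counts. The labels do not say whether the replicate numbers pair the samples. Deviations from the group means correlated at 0.08, -0.16 and -0.35 between same-numbered arrays, which with 3 arrays per group cannot settle it. With the number as a replicate block 295 genes changed, among them 0 numbered cadherins, 0 clustered and 0 non-clustered protocadherins and 0 catenins and junction partners. The cause of these differences was not tested. Signal over background limits Pcdhb15, Pcdhb1, Pcdhgc5, Pcdhga5, Pcdha11 and Cdh20, each above background on 1 or 2 of 3 arrays in 1 of the groups. It also limits the dimmest tested probes of Pcdh7 and Cdh4, each above background on 2 of 3 controls.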
